A study of Mus musculus with 2 samples.

Results

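Endothelial junction genes, which encode the proteins that hold neighbouring vessel-lining cells together, were followed in 2 RNA libraries from blood progenitors of the mouse aorta. The members were taken by symbol: Pecam1, Cdh5, Cldn5, Esam, Jam2, Jam3, F11r, Tjp1, Ocln and Icam2. All 10 were found among the 24062 genes of the deposited count tables, and all 10 had counts in both libraries. The Gata2Venus-negative library came from CD31+ KITint cells that did not express Gata2Venus, a fluorescent transgene that reports on the haematopoietic transcription factor Gata2. The Gata2Venus-positive library came from CD31+ KITint cells that did. Both groups were C57BL6 embryos at embryonic day 11, with the aorta as the tissue, and the labels call the cells haematopoietic progenitors. By its title, the study concerns Gata2-independent progenitors of the mouse. The labels do not say how many embryos were pooled, nor do they describe the transgene further.

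Each group had 1 library, so no difference below has a replicate check, no test between the conditions was possible. What is compared are these libraries, not replicated groups. Intervals are exact 95% intervals and cover counting error only, and amplified cDNA without molecular identifiers is not a count of independent molecules. The Gata2Venus-negative library held 10135400 counts in genes and the Gata2Venus-positive library 9715131. Levels are in CPM, the usual depth-scaled unit of counts, after scaling by TMM factors. As a check of the sort, Gata2 was at 13.5 CPM in the Gata2Venus-negative and 70.2 CPM in the Gata2Venus-positive library. Kit, the other sorted gene, was at 199 and 60.7 CPM in the same order. It was thus 3.28-fold higher in the Gata2Venus-negative library, though both groups were sorted as KITint. In bulk RNA, fewer cells of a type and less RNA per cell cannot be told apart.

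As background, endothelial cells are joined by adherens junctions, built on VE-cadherin, and by tight junctions, built on claudins, occludin and junctional adhesion molecules that are anchored to ZO proteins inside the cell. Further immunoglobulin-family proteins (PECAM1, ICAM2, ESAM) sit at the same contacts and also serve the passage of leucocytes. In the embryonic aorta, blood progenitors arise from endothelium and lose their contacts with the endothelial layer as they leave it. Several of these proteins, among them PECAM1, ESAM and JAM-A, are also found on platelets or blood progenitors, so they do not mark endothelium alone.

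The 10 genes did not move together. Icam2 was 3.14-fold and Cdh5 2.71-fold lower in the Gata2Venus-negative library, while Ocln and Jam2 were higher there, Ocln having 144 counts against 1. Cldn5, Tjp1 and Esam were lower by smaller ratios, and Pecam1, F11r and Jam3 were close to equal. The rule of size had a floor, at least 10 CPM and 50 counts in whichever library held more, and a gene was past it when its whole interval was more than 2-fold away from equal. All 10 genes reached that floor. By this rule 2 of 10 were lower in the Gata2Venus-negative library and 2 of 10 were higher, against 14.9% lower and 15.2% higher among all 10381 genes that reached the floor. Both shares of the junction genes were thus close to those of genes in general. Were libraries of one group taken to vary by a coefficient of 0.4 on top of counting error, Ocln alone of the 10 would be past the rule. The log2 ratio (Gata2Venus-negative over Gata2Venus-positive) had a median of -0.33 over the 10 junction genes, against -0.01 for all 12544 genes with at least 20 counts over both libraries. This median falls between members far apart, Esam (-0.68) and Jam3 (0.03). Leaving out a gene above it, such as Pecam1 or Ocln, gives -0.68. Leaving out any gene below it gives 0.03, so its sign depends on single members. The junction genes had lower and upper quartiles of -0.94 and 0.11, and all genes had -0.84 and 0.81. Summed over the 10 genes, the level was 1683 CPM in the Gata2Venus-negative and 2412 CPM in the Gata2Venus-positive library.

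**Figure D1:**
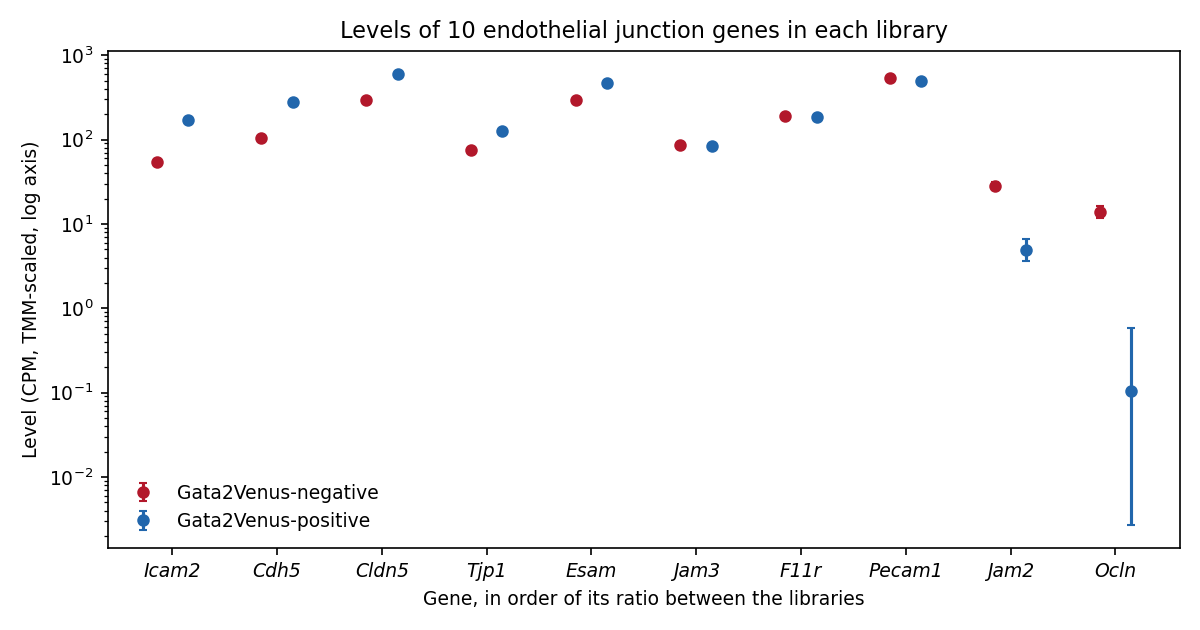
Levels of the 10 junction genes in CPM on a log axis, with 1 point per library and bars for the exact 95% Poisson interval, ordered by the ratio between the libraries. Icam2 (54.5 against 171 CPM) and Cdh5 (104 against 282 CPM) are lower in the Gata2Venus-negative library, and Jam2 (28.2 against 4.97 CPM) and Ocln (13.8 against 0.106 CPM) are higher.

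How much a ratio means depends on the level, since low genes differed more between these libraries than abundant ones. Among genes with a mean over 200 CPM, 2.63% were past the rule as lower and 2.74% as higher in the Gata2Venus-negative library. For genes of 50 to 200 CPM the shares were 7.35% and 9.18%, and for genes under 50 CPM they were 22.0% and 21.4%. By their mean levels Icam2 and Cdh5 lay in the middle class, and Jam2 and Ocln in the lowest. The interval alone says less: it lay wholly below equal for 42.9% and wholly above equal for 43.4% of all genes at the floor. Of the 10 junction genes it lay below equal for 5 (Cdh5, Cldn5, Esam, Tjp1, Icam2), above for 3 (Pecam1, Jam2, Ocln) and held equal for 2 (Jam3, F11r).

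**Figure D2:**
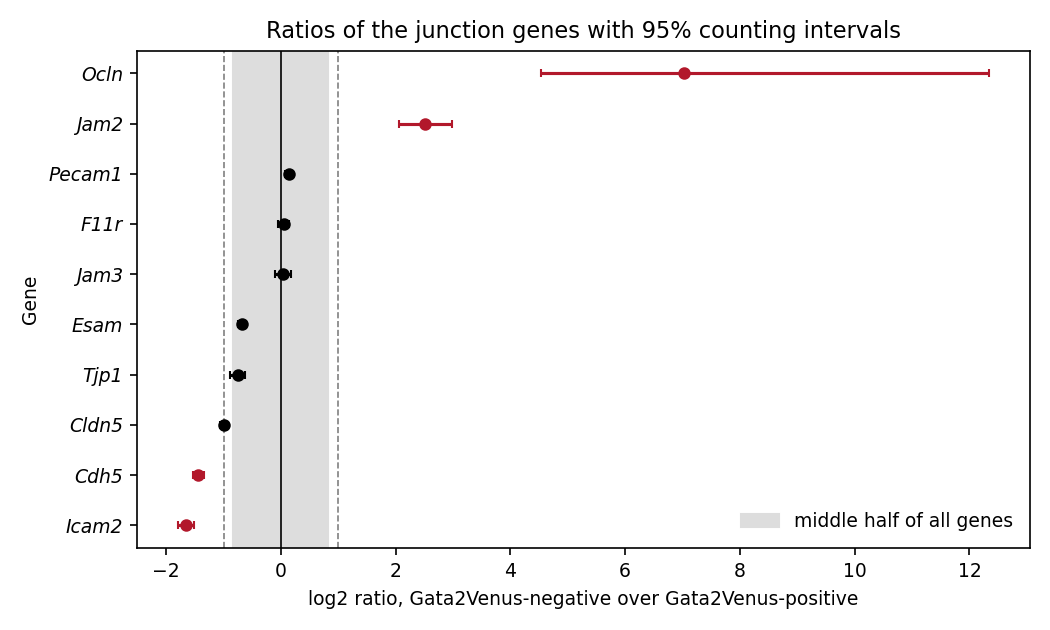
Ratio of the Gata2Venus-negative over the Gata2Venus-positive library for each junction gene on a log2 scale, with exact 95% counting intervals, red where past the rule and black where not. The grey band runs between the quartiles of all genes (-0.84 to 0.81) and the dashed lines mark 2-fold. Icam2 and Cdh5 lie left of the lower dashed line, Cldn5 lies on it, and Jam2 and Ocln lie right of the upper one.

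The adherens junction gene Cdh5 encodes VE-cadherin, the cadherin of endothelial cells. It lies on chromosome 8 (104101625 to 104144511, plus strand, mm10). It had 1084 counts in the Gata2Venus-negative and 2667 in the Gata2Venus-positive library, or 104 CPM (interval 98.01 to 111) against 282 CPM (271 to 293). Cdh5 was therefore 2.71-fold lower in the Gata2Venus-negative library (log2 ratio -1.44, interval -1.54 to -1.34) and past the rule. A ratio inside each library does not depend on scaling. For every 100 counts of Pecam1 there were 19.4 of Cdh5 (interval 18.1 to 20.7) in the Gata2Venus-negative library, against 57.6 (54.9 to 60.5) in the Gata2Venus-positive one.

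Of 15 listed adherens junction genes (other cadherins, catenins, nectins, afadin, vinculin and junction phosphatases) 12 reached the floor. Of these, 0 were past the rule as lower and 1 as higher, against 14.9% and 15.2% of all genes at the floor. The median log2 ratio was -0.17 over 14 measured genes. Ctnnb1, which encodes beta-catenin, was at 843 CPM in the Gata2Venus-negative and 827 CPM in the Gata2Venus-positive library. Ctnna1, for alpha-catenin, was at 549 and 623 CPM in that order. Jup, for gamma-catenin, was lower at 161 against 325 CPM (2.01-fold, log2 ratio -1.01, interval -1.10 to -0.92), not past the rule but past it with both libraries set to the same Pecam1 count. The gene past the rule was Cdh2, the N-cadherin of mesenchymal and neural cells that endothelium also carries, at 115 CPM in the Gata2Venus-negative against 48.6 CPM in the Gata2Venus-positive library (log2 ratio 1.24, interval 1.08 to 1.39). The levels of the 2 cadherin genes thus differed in opposite directions, though Cdh2 was not past the rule with both libraries set to the same Pecam1 count. Of 12 mesenchymal and smooth muscle markers, all at the floor, 7 were past the rule as higher and 0 as lower. The shares of all genes at the floor were 15.2% and 14.9%. Of the 12 markers 3 had log2 ratios below 0, and no marker was at 0 counts. Their summed level was 7767 CPM in the Gata2Venus-negative against 4797 CPM in the Gata2Venus-positive library. Their part in the Cdh2 result was not tested.

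Among the tight junction genes, Cldn5 encodes claudin-5, the main claudin of endothelial tight junctions. It lies on chromosome 16 (18776847 to 18778262, plus strand). It had 3100 counts in the Gata2Venus-negative and 5627 in the Gata2Venus-positive library, or 298 CPM (287 to 308) against 595 CPM (580 to 611). Its ratio sat at the edge of the rule, 1.998-fold lower in the Gata2Venus-negative library (log2 ratio -0.999, interval -1.06 to -0.94), so the interval crossed 2-fold and the gene was not past it. With both libraries set to the same Pecam1 count it was past the rule.

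Ocln encodes occludin, a membrane-spanning protein prominent in epithelial and blood-brain barrier tight junctions. It lies on chromosome 13 (100496507 to 100552718, minus strand). It had 144 counts in the Gata2Venus-negative and 1 in the Gata2Venus-positive library, or 13.8 CPM (11.7 to 16.3) against 0.106 CPM (0.0027 to 0.589). The ratio was 131-fold higher in the Gata2Venus-negative library with a very wide interval, 23.1-fold to 5202-fold (log2 ratio 7.03, interval 4.53 to 12.35). Such a gap is not rare here: of the 5182 genes at the floor that were higher in the Gata2Venus-negative library, 7.37% had 3 or fewer counts in the other library. None of the 50-base windows of its annotated transcripts was shared with another gene (0 of 4301).

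Tjp1 encodes ZO-1, the scaffold that ties claudins, occludin and JAM proteins to actin. It lies on chromosome 7 (65296165 to 65527781, minus strand). It had 789 counts in the Gata2Venus-negative and 1210 in the Gata2Venus-positive library, or 75.8 CPM (70.6 to 81.3) against 128 CPM (121 to 135). It was 1.69-fold lower in the Gata2Venus-negative library (log2 ratio -0.76, interval -0.89 to -0.62) and not past the rule. Of Cldn5, Ocln and Tjp1, only Ocln was past the rule.

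The sequences upstream of RefSeq starts of these 3 tight junction genes are shown so that their start regions can be read side by side. They are the 250 bases before a start in RefSeq's annotation of GRCm38.p6 (the mm10 assembly), on the gene's own strand, and lie at chr13:100552719-100552968 (minus strand, Ocln), chr16:18776597-18776846 (plus strand, Cldn5) and chr7:65371245-65371494 (minus strand, Tjp1). The Tjp1 start is an internal one, that of the shorter transcripts, and its window lies inside the gene span given above. Capitals mark GGAA, the core letters of ETS motifs, and TGATAA, one of the motifs of GATA factors, each on either strand.
Ocln: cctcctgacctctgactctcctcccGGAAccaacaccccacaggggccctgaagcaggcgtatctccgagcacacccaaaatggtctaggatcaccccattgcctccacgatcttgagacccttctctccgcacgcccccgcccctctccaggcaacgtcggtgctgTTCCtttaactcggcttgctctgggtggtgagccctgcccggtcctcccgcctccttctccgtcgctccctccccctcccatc
Cldn5: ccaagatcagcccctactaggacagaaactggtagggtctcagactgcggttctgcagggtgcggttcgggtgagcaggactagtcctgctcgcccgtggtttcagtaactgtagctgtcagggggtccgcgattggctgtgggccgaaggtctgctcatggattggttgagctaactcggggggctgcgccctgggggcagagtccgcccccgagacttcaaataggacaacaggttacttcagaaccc
Tjp1: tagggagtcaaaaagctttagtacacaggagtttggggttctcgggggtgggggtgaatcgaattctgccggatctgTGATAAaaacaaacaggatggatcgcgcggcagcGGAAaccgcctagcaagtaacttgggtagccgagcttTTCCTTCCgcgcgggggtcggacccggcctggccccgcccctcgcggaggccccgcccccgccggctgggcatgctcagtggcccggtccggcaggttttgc

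GGAA occurred 2 times in the Ocln window, 3 times in the Tjp1 window and 0 times in the Cldn5 window. It was present in 93.4% of all 32851 RefSeq promoter windows of this length. TGATAA occurred once, in the Tjp1 window, and in 7.94% of all windows. The GATA motif AGATAA was in none of the 3 windows and in 9.99% of all windows. Of the E-box motifs, CAGCTG was in none of the 3 and in 13.0% of all. The other E-box motif, CATCTG, was also in none of the 3 and in 14.4% of all. A match is a description of the letters and says nothing of binding. Promoter entries were found for 4 of the 10 members, F11r being the other one, and the Ocln window is the upstream one of 2 RefSeq starts.

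In the wider tight junction scaffold calls went both ways, as among all genes at the floor (14.9% lower and 15.2% higher). Of 21 listed genes (ZO proteins other than Tjp1, cingulins, MARVEL, polarity and angiomotin proteins) 16 reached the floor, 2 were past the rule as lower and 3 as higher in the Gata2Venus-negative library, and the median log2 ratio was 0.18 over 18 measured genes. Inadl, which encodes the polarity protein PATJ, was at 83.8 CPM in the Gata2Venus-negative against 10.6 CPM in the Gata2Venus-positive library, 7.92-fold higher. Its relative Mpdz, a scaffold with many PDZ domains, was at 87.0 against 15.2 CPM, 5.72-fold higher. Lower in the Gata2Venus-negative library were the scaffold gene Magi3 (45 counts against 242) and Ybx3, a Y-box protein that binds ZO-1 (87 counts against 331). Prkci, the atypical protein kinase C of the same polarity complex, was the third gene past the rule as higher (98.2 against 38.8 CPM), named after its values were seen.

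Most other claudins had few or no counts. There were 24 other claudin symbols, of which 11 had no count in either library and 6 reached the floor. The most abundant of the 24, Cldn25 (1149 counts against 778, not past the rule), is a symbol that annotation links to more than 1 gene, so it is uncertain which gene was counted. Cldn2, a pore-forming claudin, had 0 counts in the Gata2Venus-negative and 113 in the Gata2Venus-positive library. With the 0 set to 3 counts it was 41.5-fold lower, and its exact interval lay below a log2 ratio of -5.05. Cldn6, a claudin of embryonic epithelia, had 79 counts against 253, 3.53-fold lower. Cldn7, an epithelial claudin, had 108 counts against 0, and Cldn15 had 105 against 0. With the 0 set to 3 counts they were 32.7-fold and 31.8-fold higher. Their exact intervals began at log2 ratios of 4.71 and 4.67. Thus 2 of the 6 were past the rule as lower and 2 as higher, against 14.9% and 15.2% of all genes at the floor. Both higher calls rest on levels just above the floor of 10 CPM: with both libraries set to the same Pecam1 count 0 remained, and with the deeper library thinned 1. The lower call of Cldn2 also rests on a level near the floor (11.9 CPM), though 2 lower calls remained under both settings. With a filter of 1 CPM and 10 counts, or none, 5 claudins were past the rule as lower and 3 as higher. The highest of the 4 was Cldn6 at 15.5 CPM per kilobase of exon in the Gata2Venus-positive library, against 210 and 420 for Cldn5 in the Gata2Venus-negative and Gata2Venus-positive library.

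Epithelial markers are given beside Ocln and the claudins, since epithelia share these genes. Of 13 epithelial markers 4 were past the rule as higher (Epcam, Cdh1, Cldn7, Esrp1) and 2 as lower (Cldn6, Grhl2) in the Gata2Venus-negative library, and 3 of those at the floor were not past it. Of all genes at the floor 15.2% were higher and 14.9% lower. With a filter of 1 CPM and 10 counts, or none, 4 of the markers were past the rule as higher and 4 as lower. The summed level of the 13 markers was 477 CPM in the Gata2Venus-negative and 348 CPM in the Gata2Venus-positive library. Epcam, the epithelial cell adhesion molecule, was at 47.8 against 10.9 CPM, and the epithelial splicing factor gene Esrp1 at 29.1 against 7.51 CPM. Grhl2, an epithelial transcription factor gene, went the other way with 4 counts against 116. Cldn3, Cldn4 and Esrp2 were at 0 in the Gata2Venus-negative library, and Cldn7 and Esrp2 at 0 in the Gata2Venus-positive one. Marveld2, which encodes tricellulin, a relative of occludin, lies 43.2 kb from Ocln on the same strand and had 0 counts against 33, named after its values were seen. The part of epithelial cells in the Ocln result was not tested.

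The junctional adhesion molecules are immunoglobulin-family proteins of tight junctions that bind each other and leucocyte integrins. F11r encodes JAM-A, found in endothelium, epithelium and platelets, and lies on chromosome 1 (171437535 to 171464603, plus strand). It had 1985 counts in the Gata2Venus-negative and 1743 in the Gata2Venus-positive library, or 191 CPM (182 to 199) against 184 CPM (176 to 193). The log2 ratio was 0.05 (interval -0.04 to 0.14). This interval allows at most a 1.10-fold higher level in the Gata2Venus-negative library, counting error alone considered.

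Jam3 encodes JAM-C, a junction protein that binds JAM-B, and lies on chromosome 9 (27097384 to 27155421, minus strand). It had 890 counts in the Gata2Venus-negative and 791 in the Gata2Venus-positive library, or 85.5 CPM (80.0 to 91.3) against 83.6 CPM (77.9 to 89.7). The log2 ratio was 0.03 (interval -0.11 to 0.17). Both small ratios changed sign when the libraries were set to the same Pecam1 count (F11r -0.09, Jam3 -0.10), so neither has a direction. An annotated transcript on the other strand, Gm48796, overlaps 36.2% of the exon bases of Jam3, and the use of strand in counting is not given, so reads of the 2 cannot be told apart.

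Jam2 encodes JAM-B, the partner of JAM-C at contacts of endothelial cells, and lies on chromosome 16 (84774123 to 84825928, plus strand). It had 294 counts in the Gata2Venus-negative and 47 in the Gata2Venus-positive library, or 28.2 CPM (25.1 to 31.7) against 4.97 CPM (3.65 to 6.61). It was 5.68-fold higher in the Gata2Venus-negative library (log2 ratio 2.51, interval 2.06 to 2.98) and past the rule. Within the family, Jam2 took 9.28% of the 3169 JAM counts (interval 8.29 to 10.3) in the Gata2Venus-negative library, against 1.82% of 2581 (1.34 to 2.41) in the Gata2Venus-positive one. F11r held 62.6% and 67.5% and Jam3 28.1% and 30.6% of these counts in the same order. Per kilobase of exon the shares were 4.54% and 0.855% for Jam2, 69.5% and 72.0% for F11r, and 25.9% and 27.2% for Jam3. The family as a whole was at 304 CPM in the Gata2Venus-negative and 273 CPM in the Gata2Venus-positive library, so the partners differed in balance more than in sum. For every 100 counts of Jam3 there were 33.0 of Jam2 (28.9 to 37.7) against 5.94 (4.33 to 7.98). In the same order, mesenchymal and smooth muscle markers summed to 7767 against 4797 CPM and endothelial markers to 3180 against 6661 CPM. The part of these cell types in the Jam2 result was not tested.

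The remaining members are contact proteins outside the cadherin, claudin and JAM families. Pecam1 encodes CD31, on which both groups were sorted, and lies on chromosome 11 (106654217 to 106750628, minus strand). It had 5593 counts in the Gata2Venus-negative and 4627 in the Gata2Venus-positive library, or 537 CPM (523 to 551) against 489 CPM (475 to 504). The ratio of 1.10-fold higher in the Gata2Venus-negative library (log2 ratio 0.13, interval 0.08 to 0.19) was not past the rule. The sort selected on its protein in both groups, so this closeness is not read as a finding. The part of the sort in it was not tested.

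Icam2 encodes an adhesion molecule of endothelium, platelets and leucocytes that binds the integrin LFA-1. It lies 266 kb from Pecam1 on the same strand of chromosome 11 (106377656 to 106388075). It had 567 counts in the Gata2Venus-negative and 1619 in the Gata2Venus-positive library, or 54.5 CPM (50.1 to 59.1) against 171 CPM (163 to 180). Icam2 was 3.14-fold lower in the Gata2Venus-negative library (log2 ratio -1.65, interval -1.79 to -1.51), the lowest ratio of the 10, and past the rule. For every 100 counts of Pecam1 there were 10.1 of Icam2 (9.28 to 11.1) in the Gata2Venus-negative and 34.99 (33.0 to 37.0) in the Gata2Venus-positive library.

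Esam encodes an adhesion molecule of endothelial tight junctions that is also carried by platelets and blood stem cells, and lies on chromosome 9 (37528078 to 37538319, plus strand). It had 3076 counts in the Gata2Venus-negative and 4484 in the Gata2Venus-positive library, or 295 CPM (285 to 306) against 474 CPM (460 to 488). It was 1.60-fold lower in the Gata2Venus-negative library (log2 ratio -0.68, interval -0.75 to -0.62) and not past the rule. Its mean level was over 200 CPM, where the quartiles of all genes were -0.36 and 0.35, so Esam lay below the lower one.

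**Figure D3:**
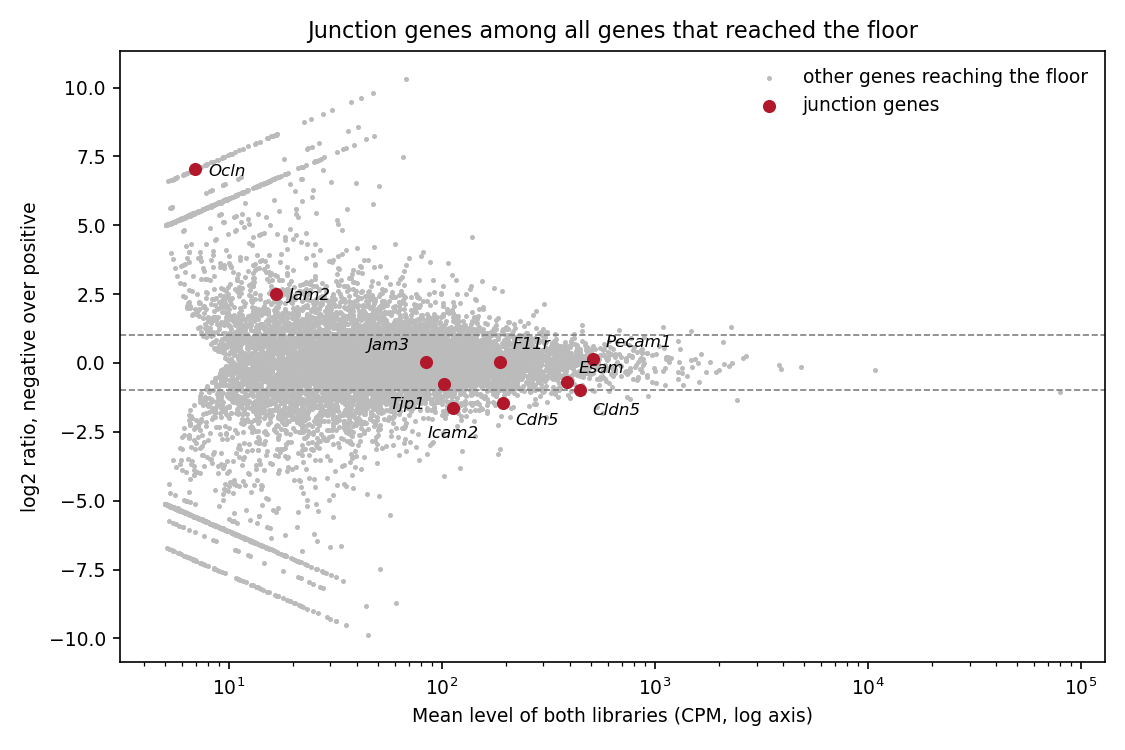
Each grey point is 1 of the genes that reached the floor, by its mean level in CPM (log axis) and its log2 ratio of the Gata2Venus-negative over the Gata2Venus-positive library, with a count of 0 set to 3. The slanted lines of points are genes with very few counts in one library. Cldn5 and Esam lie in the lower part of a narrow cloud at high level, whereas Ocln lies on one of the slanted lines at a mean of 6.97 CPM.

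To set the levels of different genes in order, CPM were divided by the length of the union of annotated exons in kilobases. In the Gata2Venus-negative library the order was Cldn5 (210), Esam (103), Pecam1 (86.3), F11r (71.6), Icam2 (28.6), Jam3 (26.7), Cdh5 (24.8), Tjp1 (9.70), Jam2 (4.67) and Ocln (3.28). Of neighbours in that order, Icam2 and Jam3 did not differ beyond their counting intervals, and neither did Jam3 and Cdh5. In the Gata2Venus-positive library the order was Cldn5 (420), Esam (165), Icam2 (89.9), Pecam1 (78.6), F11r (69.2), Cdh5 (67.1), Jam3 (26.1), Tjp1 (16.4), Jam2 (0.822) and Ocln (0.025). There F11r and Cdh5 did not differ beyond their intervals. Cldn5 led and Jam2 and Ocln came last in both libraries. Icam2 ranked 5 in the Gata2Venus-negative and 3 in the Gata2Venus-positive library. Per kilobase of the longest coding transcript the neighbours Icam2 and Jam3 changed places in the Gata2Venus-negative library, and Icam2 and Pecam1 in the Gata2Venus-positive one. The share of Cldn5 in the summed per-kilobase level of the 10 genes was 37.0% in the Gata2Venus-negative and 45.0% in the Gata2Venus-positive library.

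The junction genes stood against other endothelial genes as follows. All 14 listed endothelial markers outside the members were detected in both libraries. Of these 14, all at the floor, 8 were past the rule as lower in the Gata2Venus-negative library and 0 as higher. For all genes at the floor the shares were 14.9% and 15.2%. The 14 markers had a median log2 ratio of -1.15 and a summed level of 3180 CPM against 6661 CPM. Emcn, an endothelial sialomucin, was at 253 against 893 CPM, and Ecscr, an endothelial surface regulator, at 63.7 against 302 CPM. Ramp2, a co-receptor for adrenomedullin, was 3.93-fold and Mmrn2, an endothelial matrix protein gene, 3.38-fold lower. The other direction was seen for Clec14a, an endothelial lectin gene, at 145.5 against 86.6 CPM (log2 ratio 0.75, interval 0.63 to 0.87), and Kdr and Robo4 were 1.30-fold and 1.18-fold lower, none of them past the rule. With the coefficient of 0.4 described above, 0 of the 14 would be past the rule. The log2 ratios of Cdh5 (-1.44) and Icam2 (-1.65) were below that median, and those of the other 8 junction genes were above it. The part of endothelial content in these results was not tested.

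**Figure D4:**
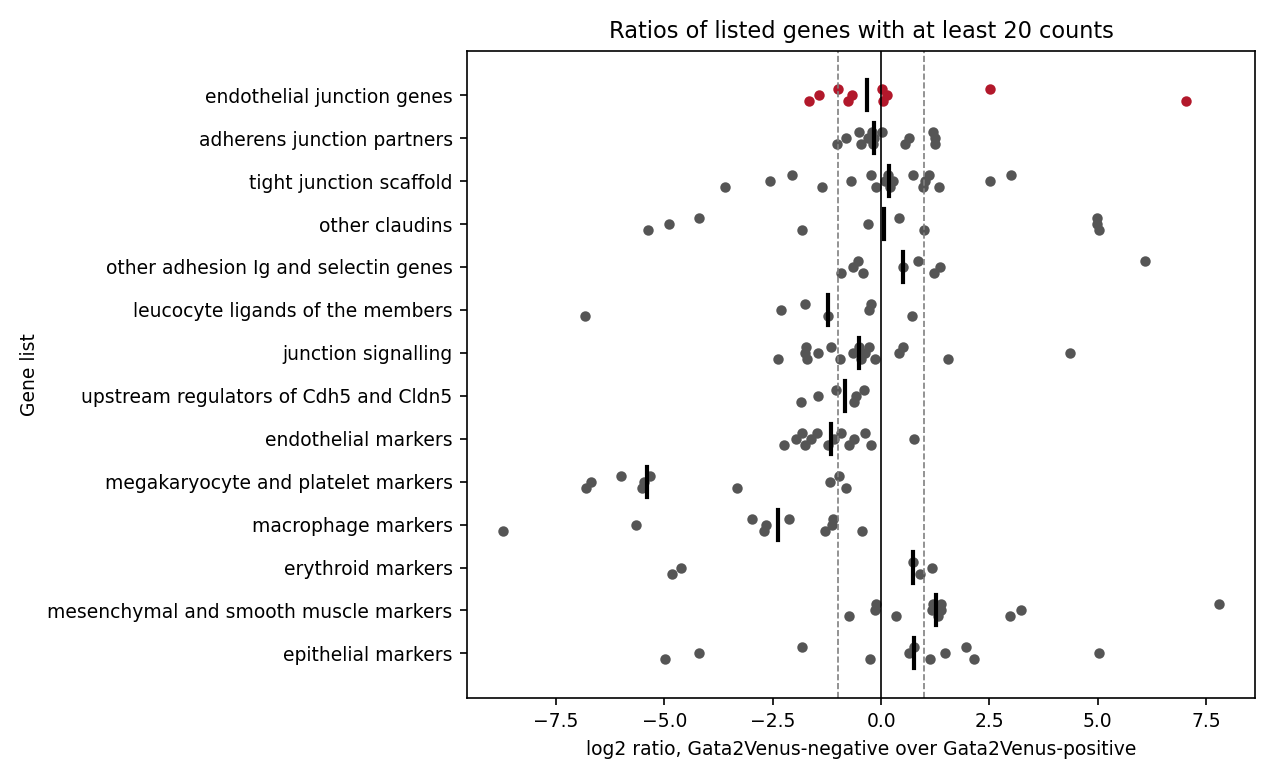
Log2 ratio of the Gata2Venus-negative over the Gata2Venus-positive library for each gene with at least 20 counts in the junction list (red) and 13 other lists (grey), with a count of 0 set to 3 and a black bar at each median. The junction genes straddle 0 (median -0.33), endothelial markers lie mostly left of it (-1.15), and mesenchymal markers mostly right (1.26).

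Platelets and macrophages can carry CD31 and some of the other members, so their markers are given beside these results. Beside both lists stand the shares of all genes at the floor, 14.9% lower and 15.2% higher. Of 10 megakaryocyte and platelet markers 9 reached the floor. Of these, 6 were past the rule as lower in the Gata2Venus-negative library and 0 as higher. The 10 had a summed level of 93.6 against 412 CPM. The platelet glycoprotein genes Gp1bb and Gp5 were at 0 there, against 109 and 124 counts. Gp9 had 5 counts against 290, and Tubb1, a platelet tubulin gene, 3 against 281. Of 10 macrophage markers 7 were past the rule as lower and 0 as higher, with a summed level of 224 against 970 CPM. Timd4, a receptor for apoptotic cells, was at 0 against 138 counts. Cx3cr1, the fractalkine receptor, had 3 counts against 1150. Mrc1, the mannose receptor, was 7.90-fold and C1qb, of complement C1q, 6.29-fold lower. The part of these cells in the lower Icam2 and Esam levels was not tested.

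Transcription factors known to act upstream of Cdh5 or Cldn5 all had lower values in the Gata2Venus-negative library. Of the 6, all at the floor, 2 were past the rule as lower and 0 as higher, against 14.9% and 15.2% of all genes at the floor. Foxo1, a forkhead factor that represses Cldn5, was at 20.4 against 73.0 CPM (log2 ratio -1.84, interval -2.07 to -1.62). Sox18, an endothelial SOX factor, was at 47.6 against 130 CPM (log2 ratio -1.45, interval -1.60 to -1.29). The other 4 of the list did not pass. Over the 6 genes the median was -0.83. With the coefficient of 0.4, 0 would be past it.

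Of 17 genes of the Rap1 and cerebral cavernous malformation pathways, Src kinases and SH2 phosphatases, 5 were past the rule as lower in the Gata2Venus-negative library and 2 as higher, with a median log2 ratio of -0.51. Among all genes at the floor the shares were 14.9% and 15.2%. With the coefficient of 0.4 the counts would be 0 lower and 1 higher. Rapgef3, which encodes the cAMP sensor EPAC1 that activates Rap1 at junctions, was at 11.7 against 61.2 CPM, 5.22-fold lower. Rap1b, a GTPase that strengthens VE-cadherin contacts, was at 70.7 against 230 CPM, 3.25-fold lower. Ptpn6, for the phosphatase SHP-1 that binds PECAM1, was at 28.9 against 97.7 CPM, 3.38-fold lower. Radil, a Rap1 effector, had 248 counts against 11, 20.5-fold higher. Endothelial and macrophage markers, given above, were lower as well, and their part in these values was not tested.

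Among other adhesion genes of the immunoglobulin and selectin families, 7 reached the floor. Of these, 1 was past the rule as higher and 0 as lower, against 15.2% and 14.9% of all genes at the floor. Vcam1, the ligand of the integrin VLA-4, had 225 counts in the Gata2Venus-negative and 0 in the Gata2Venus-positive library, at least 68.1-fold higher. Icam1, a relative of Icam2, was at 96.9 against 185 CPM, and Mcam, an endothelial and pericyte adhesion molecule, at 91.6 against 144 CPM, neither past the rule. Thus Vcam1 and Icam2 went in opposite directions. The selectin genes Sele and Selp had 0 counts in both libraries. A level of 3 counts would be 0.288 CPM in the Gata2Venus-negative and 0.317 CPM in the Gata2Venus-positive library.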

How the data were processed

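The authors deposited raw read counts by gene symbol, in whole numbers, in a table for each library. TopHat, Cufflinks and HTSeq with build mm10 are named per the submitters' processing notes. Per the labels' protocols, RNA from a mirVana kit was amplified by SMARTER. For versions, annotation and strand the sources used here give nothing. Summary rows without a gene (51.9% of the Gata2Venus-negative and 56.6% of the Gata2Venus-positive table) were left out.

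Counts were scaled by TMM factors (edgeR 4.0.16, R 4.3.3). With 1 library per group a rule of size replaced a test: at least 10 CPM and 50 counts, and the exact interval (Clopper-Pearson, given the gene's total) beyond 2-fold. Levels have exact Poisson intervals. A count of 0 was set to 3 in medians and in printed folds. Coordinates and exon lengths come from GENCODE vM21, which matches mm10. The rule and its intervals were tried on simulated counts with counting error only. That trial held no spread between libraries and did not cover the scaling. All members, and from each of 13 other lists at most 4 genes past the rule by interval, or the 2 most abundant, were named. Others were named after their values were seen: Prkci, Marveld2, Cdh1, Jup, Clec14a, Kdr, Robo4, Cldn25, Dcn, Lum, Col1a2, Hba-x and markers at 0 (Cldn3, Cldn4, Esrp2, Sele, Selp, Epor, Klf1). No gene was named for likeness, since a pattern over 2 libraries is 1 ratio. Members, lists and the classes of level were chosen with earlier results of these data known. Alternatives were other scalings (totals, DESeq2 1.42.0, without the 100 most abundant genes, equal Pecam1), filters, fold limits, thinning, an assumed coefficient of variation of 0.4 and 0.5 added counts.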

Additional observations from a re-analysis of the deposited data

How the results depend on the processing

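The same 4 junction genes, Cdh5 and Icam2 as lower and Jam2 and Ocln as higher in the Gata2Venus-negative library, were past the rule under the other scalings and filters, thinning, 0.5 added counts and a 2-fold ratio without its interval. Setting both libraries to the same Pecam1 count added Cldn5 (3 lower) and moved the median of all genes by -0.135. The junction median was then -0.82, but over 9 genes, since Pecam1 has no value under this scaling. With an interval beyond 4-fold, 0 were lower. With an assumed coefficient of variation of 0.4, 0 were lower and 1, Ocln, was higher. The median of -0.33 stood between members far apart and was -0.68 without Pecam1 and likewise without Ocln, both chosen after seeing the data. Both lie above the median, and leaving out any gene below it gives the value of Jam3, 0.03.

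Over all genes, 1545 were lower and 1582 higher in the Gata2Venus-negative library. A filter of 1 CPM and 10 counts gave 2484 lower and no filter 2503. Beyond 4-fold there were 751 lower and 744 higher, and with the coefficient of variation 691 and 659. Spread between libraries was not measured. Of the other lists, that coefficient left 3 of 7 mesenchymal markers as higher, 1 of 4 epithelial markers as higher and 1 of 2 as lower, 1 of 3 scaffold genes as higher and 0 of 2 as lower, 0 of 1 adherens partners as higher, 1 of 2 claudins as lower, 1 of 4 leucocyte ligands, 5 of 7 macrophage and 6 of 6 megakaryocyte markers as lower.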

Other observations

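Binding partners of the junction proteins on blood cells were read beside them. Of 8 genes for integrins and CD38 that are described as partners of PECAM1, ICAM2 or JAM proteins, 7 reached the floor. Of these, 4 were past the rule as lower in the Gata2Venus-negative library and 0 as higher, against 14.9% and 15.2% of all genes at the floor. The median log2 ratio was -1.23 over 7 measured genes. Cd38, a surface enzyme that binds CD31, was at 53.6 CPM in the Gata2Venus-negative against 180 CPM in the Gata2Venus-positive library (3.37-fold lower). The LFA-1 subunit genes, whose product binds ICAM2, were both lower: Itgal had 25 counts against 113, and Itgb2 had 1 against 103 (log2 ratio -6.83, interval -12.14 to -4.31). Itgb3, the platelet and endothelial integrin beta-3 gene, was at 49.7 against 117 CPM. Macrophage markers, at 224 against 970 CPM in sum, were lower too, and their part in this was not tested.

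Of 6 erythroid markers 3 reached the floor and 0 were past the rule in either direction. The shares of all genes at the floor were 14.9% lower and 15.2% higher. Epor and Klf1 were at 0 in the Gata2Venus-negative library, against 77 and 67 counts in the Gata2Venus-positive one, and 2 markers were past the rule as lower with a filter of 1 CPM and 10 counts or none. Hba-x, an embryonic globin gene, had a log2 ratio of 1.18 (interval 0.99 to 1.37), and 1 marker was past the rule as higher when scaled by total counts. The globin genes Hbb-y (143 against 85.9 CPM) and Hbb-bh1 (103 against 55.8 CPM) had higher values in the Gata2Venus-negative library, neither past the rule. Among mesenchymal markers, Pdgfra, a growth factor receptor gene, was 7.81-fold higher in the Gata2Venus-negative library, Prrx1 9.40-fold and Acta2, smooth muscle actin, 2.62-fold, and Rgs5, a pericyte gene, had 489 counts against 2. The list went both ways: Dcn, for the matrix protein decorin, was at 187 against 313 CPM (1.67-fold lower), Lum at 462 against 499.8 CPM and Col1a2 at 768 against 840.3 CPM, none past the rule.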
